A study of Mus musculus with 12 samples.

Results

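In mice that lack the upstream regulatory element (URE) of Spi1, 346 of 121336 accessible chromatin regions (0.285%) gained signal early. In immature stem and progenitor cells their signal was above that of the wild type, in which it rose towards the later granulocyte-monocyte progenitors. ATAC-seq, in which a transposase cuts accessible DNA, was performed on sorted bone marrow cells of wild-type (WT) and URE-deleted C57BL/6 littermates aged 8 to 12 weeks. LSK are Lin- Sca-1+ c-Kit+ cells and GMP are Lin- Sca-1- c-Kit+ CD16/32+ granulocyte-monocyte progenitors, and each of the 4 groups (WT-LSK, URE-LSK, WT-GMP, URE-GMP) had 3 libraries. The deletion was carried in the germ line by every cell of the URE mice, which were untreated and had no leukemia at sampling, and no other allele was named for either genotype. A region was taken when its mean CPM (the read count scaled to the library's total over all regions), plus 0.25, reached 2 in WT-GMP, exceeded WT-LSK at least 3-fold in both WT-GMP and URE-LSK, and stayed above 1/3 of WT-GMP in URE-GMP. The level alone held in 83005 regions and the rise from WT-LSK to WT-GMP in 10245 of them, of which 346 (3.38%) also met the URE-LSK condition. None of these was removed by the URE-GMP condition. A further 7628 regions met every condition except that of URE-LSK and are called the other GMP regions.

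Spi1 encodes PU.1, an ETS-family transcription factor that drives myeloid and lymphoid development and is required in graded amounts. C/EBP factors direct the granulocytic branch, and RUNX1 acts in stem cells and throughout myeloid differentiation, where it is a known partner of PU.1. Many granule genes of neutrophils and monocytes are switched on as GMP form from earlier progenitors.

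The sequences below are the 200 bases centred on the regions with the strongest WT-GMP signal per kb of width, on the plus strand of GRCm38 (RefSeq). Capitals mark each match on either strand to CEBP (TTGCNNAA) or RUNX (AACCACA). The first group held a RUNX match, and in the region upstream of Ctsg it ran directly into a CEBP match.
Osm, chr11:4232750-4232949: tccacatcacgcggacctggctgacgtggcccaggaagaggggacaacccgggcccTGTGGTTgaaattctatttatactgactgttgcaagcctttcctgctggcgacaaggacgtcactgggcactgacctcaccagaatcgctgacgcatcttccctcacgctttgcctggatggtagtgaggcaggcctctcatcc
Ctsg, chr14:56105480-56105679: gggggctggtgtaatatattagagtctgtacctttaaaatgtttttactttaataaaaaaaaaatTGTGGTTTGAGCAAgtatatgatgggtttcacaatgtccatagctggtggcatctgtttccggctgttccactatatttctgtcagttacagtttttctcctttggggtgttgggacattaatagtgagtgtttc
Lin54, chr5:100466751-100466950: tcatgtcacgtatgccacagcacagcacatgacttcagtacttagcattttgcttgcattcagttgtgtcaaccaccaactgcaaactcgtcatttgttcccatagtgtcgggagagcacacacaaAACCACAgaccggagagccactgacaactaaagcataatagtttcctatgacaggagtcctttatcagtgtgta
The second group held CEBP matches alone.
Myl10, chr5:136642235-136642434: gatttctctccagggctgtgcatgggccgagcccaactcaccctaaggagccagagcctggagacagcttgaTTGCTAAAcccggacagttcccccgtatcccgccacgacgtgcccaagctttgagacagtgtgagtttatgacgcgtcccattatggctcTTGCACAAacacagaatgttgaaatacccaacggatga
Sgms2, chr3:131474522-131474721: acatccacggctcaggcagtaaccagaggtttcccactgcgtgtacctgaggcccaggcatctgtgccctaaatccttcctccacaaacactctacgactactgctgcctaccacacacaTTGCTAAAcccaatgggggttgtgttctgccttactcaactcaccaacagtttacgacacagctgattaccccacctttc
Fbxo31, chr8:121570633-121570832: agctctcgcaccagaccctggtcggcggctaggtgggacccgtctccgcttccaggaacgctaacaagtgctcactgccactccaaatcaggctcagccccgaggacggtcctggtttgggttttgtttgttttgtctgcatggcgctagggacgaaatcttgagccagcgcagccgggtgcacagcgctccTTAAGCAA
The promoter of Nin held neither.
Nin, chr12:70102498-70102697: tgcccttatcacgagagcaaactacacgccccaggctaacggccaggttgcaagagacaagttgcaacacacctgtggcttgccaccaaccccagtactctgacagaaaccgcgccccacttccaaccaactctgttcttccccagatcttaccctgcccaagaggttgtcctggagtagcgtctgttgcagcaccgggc

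Regions next to genes of the myeloid and stem cell lists are shown for the same reason, namely that they are the strongest of their list. The window near Runx1 held a CEBP match, and those near Ctsg, Cxcr4, Ly86 and Itgb2 held no match to CEBP or RUNX in these 200 bases. In the Ly86 region a CEBP match lay within the 300-base window that was searched, outside the bases printed.
Runx1, chr16:92612598-92612797: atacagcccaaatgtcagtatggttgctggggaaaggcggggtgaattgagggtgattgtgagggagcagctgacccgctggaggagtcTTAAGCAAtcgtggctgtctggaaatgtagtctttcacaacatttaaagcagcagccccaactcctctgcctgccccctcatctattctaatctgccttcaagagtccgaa
Ctsg, chr14:56101553-56101752: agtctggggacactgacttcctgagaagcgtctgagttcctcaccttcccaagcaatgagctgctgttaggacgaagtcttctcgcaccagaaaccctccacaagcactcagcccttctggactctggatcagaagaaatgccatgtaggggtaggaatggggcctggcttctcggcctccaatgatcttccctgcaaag
Cxcr4, chr1:128570176-128570375: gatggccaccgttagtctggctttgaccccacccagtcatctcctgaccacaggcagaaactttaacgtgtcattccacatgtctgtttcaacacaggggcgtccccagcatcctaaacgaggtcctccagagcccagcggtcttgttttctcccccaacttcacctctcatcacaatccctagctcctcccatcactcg
Ly86, chr13:37399448-37399647: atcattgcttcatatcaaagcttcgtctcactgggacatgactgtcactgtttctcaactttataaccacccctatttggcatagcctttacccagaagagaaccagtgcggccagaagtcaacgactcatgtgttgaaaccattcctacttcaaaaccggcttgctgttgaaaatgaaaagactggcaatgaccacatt
Itgb2, chr10:77554994-77555193: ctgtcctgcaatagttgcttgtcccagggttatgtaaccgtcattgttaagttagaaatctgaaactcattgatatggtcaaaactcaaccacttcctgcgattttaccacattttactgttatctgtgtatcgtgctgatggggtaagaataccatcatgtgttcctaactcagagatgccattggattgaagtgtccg

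The libraries held 23072701 to 62204826 counts, so 1 CPM was 23.1 to 62.2 counts. The genotype labels were checked at the strongest of 5 regions lying 12 to 17 kb upstream of the Spi1 start site, which had 38.4 to 45.6 CPM in the WT libraries and at most 0.136 CPM in the URE libraries. Regions within 5 kb of Mpo, which encodes myeloperoxidase of primary granules, summed to 26.1 to 70.0 CPM in the 6 LSK libraries and 362 to 650 CPM in the 6 GMP libraries. Ly6a (Sca-1) and Fcgr3 (CD16) had no region within 5 kb in the table and could not serve as a check. URE-LSK replicate 3 stood apart from its group. At the Mpo regions it had 70.0 CPM, against 30.2 and 26.1 CPM in URE-LSK replicates 1 and 2 and 38.9 to 47.7 CPM in WT-LSK. Near Ctsg it had 55.0 CPM, against 30.3 and 26.8 CPM in replicates 1 and 2 and 10.02 to 13.96 CPM in WT-LSK. Of the 6 regions summed near Ctsg, 2 had been taken by the conditions above, which require a higher level in URE-LSK than in WT-LSK. The difference from WT-LSK near Ctsg was therefore partly set by that choice and is not an independent check. At 3 other GMP genes replicate 3 lay below WT-LSK, though above replicates 1 and 2. Near Elane it had 27.2 CPM (WT-LSK 42.8 to 46.6), near Prtn3 80.0 CPM (WT-LSK 104 to 118) and near Fcgr2b, which encodes an Fc receptor, 6.52 CPM (WT-LSK 16.1 to 16.7). Near Csf3r it had 27.3 CPM, within WT-LSK (23.8 to 27.7). Of the LSK markers, replicate 3 was the lowest URE-LSK library near Kit (89.3 CPM), Flt3 (54.3 CPM), Meis1 (114 CPM) and Hlf (101 CPM). It was the highest near Cd34 (37.4 CPM). The primary granule list as a whole summed to 349 to 436 CPM over the URE-LSK libraries and 429 to 435 CPM over WT-LSK. Regions near 21 genes of the B and T lineage list summed to 636 to 647 CPM in URE-LSK and 628 to 650 CPM in WT-LSK, and those of the erythroid and megakaryocyte list to 883 to 903 CPM and 829 to 902 CPM. In sorted bulk cells, more cells of a more mature type and a more open region per cell cannot be told apart.

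The 346 regions were nearly closed in WT-LSK and intermediate in URE-LSK. Their median over regions was 0.503, 0.477 and 0.486 CPM in WT-LSK replicates 1 to 3, and 2.40, 2.04 and 4.38 CPM in URE-LSK. In WT-GMP the medians were 5.57, 5.91 and 3.96 CPM, and in URE-GMP 15.5, 15.1 and 15.9 CPM. The order of the groups was the same with any library taken from each, except that URE-LSK replicate 3 exceeded WT-GMP replicate 3. The other GMP regions had the same starting level in WT-LSK, with medians of 0.503, 0.563 and 0.518 CPM, but 0.386, 0.465 and 0.758 CPM in URE-LSK.

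**Figure D1:**
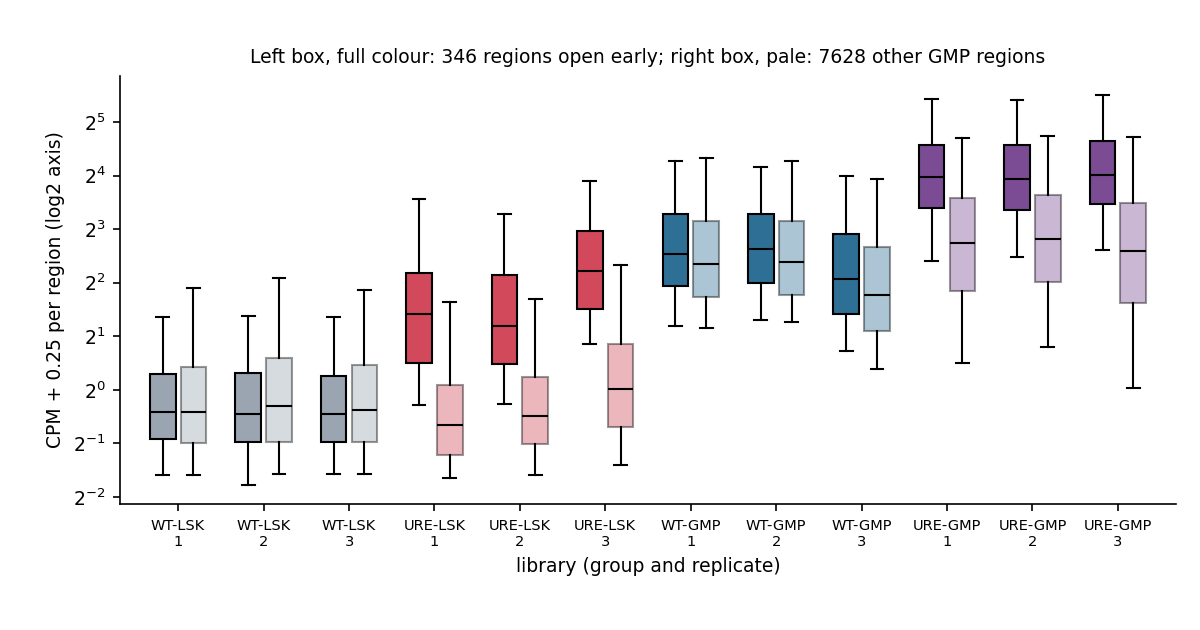
CPM plus 0.25 per region on a log2 axis in each of the 12 libraries (boxes, quartiles with the median; whiskers, 5th to 95th percentile), for the 346 regions open early (full colour) and the 7628 other GMP regions (pale). The early regions sit at medians of 2.04 to 4.38 CPM in URE-LSK, between WT-LSK and WT-GMP, and replicate 3 is the highest of its group in both sets.

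All 3 URE-LSK libraries lay above all 3 WT-LSK libraries at 346 of 346 regions, which the choice of regions largely fixed (28.1% of all regions). In edgeR's quasi-likelihood test all 346 were called higher in URE-LSK and in WT-GMP than in WT-LSK (backgrounds 13.6% and 21.0%), differences by which they had been chosen. URE-LSK replicate 3 was the highest of its group at 335 of them. Against the WT-LSK mean, the median ratio was 3.11, 2.86 and 5.52 in URE-LSK replicates 1 to 3, and 186, 153 and 345 regions reached 3-fold in that library alone. A ratio of 3 was reached in every URE-LSK library by 127 regions (36.7%) and a ratio of 2 by 288 (83.2%). Without URE-LSK replicate 3 the conditions found 169 regions, 168 of them among the 346. The same library was also the highest at 5873 of the 7628 other GMP regions. With URE-LSK replicate 1 or 2 left out in place of replicate 3, 345 and 342 of the 346 remained. The cause of the higher level in replicate 3 was not tested.

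When regions were chosen on 2 replicate numbers and read in the remaining one, the rise in URE-LSK held its direction in nearly all. URE-LSK replicate 3 still took part in the choice when number 1 or 2 was read. Over all regions the median URE-LSK/WT-LSK ratio of group means was 1.01, but the share above 1 in a single number was not computed. At the other GMP regions the median ratio to the WT-LSK mean was 0.867, 0.948 and 1.29 in URE-LSK replicates 1 to 3. Replicate 3 was thus raised there as well. Regions chosen without the libraries numbered 1 had a median URE-LSK/WT-LSK ratio of 2.44 in those libraries, with 494 of 501 above 1 and 172 (34.3%) at 3 or more. For number 2 the median was 2.29, with 490 of 497 above 1 and 139 at 3 or more. For number 3 it was 5.72, with 200 of 200 above 1 and 183 (91.5%) at 3 or more. Because WT-LSK was the denominator of both ratios, a chance low value there raises both. Using separate WT-LSK libraries for the 2 ratios gave 355, 374 and 342 regions in the 3 possible ways, of which 290, 291 and 296 were among the 346, and 219 (63.3%) passed in all 3 ways. In all 12 sets that each left out 1 library, 138 (39.9%) remained.

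The thresholds cut through a continuum. The promoter of Nin stood just inside the URE-LSK threshold at 3.003, and a region at chr11:106688331-106688999 just outside at 2.997, where URE-LSK had 12.2 and WT-LSK 3.91 CPM. For the rise in the wild type, chr13:45239147-45239722 was just inside at 3.02 and chr4:130919677-130920086 just below the bound. For the WT-GMP level, chr12:75292960-75293342 was just inside at 2.01 and chr9:44004183-44004767 just outside at 1.98. The lowest URE-GMP/WT-GMP ratio was 0.384, at chr16:20757447-20757734 near Chrd, and no region lay outside that bound alone.

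How far the regions had opened in URE-LSK was read against WT-GMP. The median URE-LSK/WT-GMP ratio was 0.625, and it ran from 0.0900 to 3.92. A ratio of 0.5 or more was seen at 215 regions, above 1 at 75 and below 0.25 at 47. In edgeR's quasi-likelihood test with Benjamini-Hochberg adjustment over all 121336 regions, where a call needs an adjusted p below 0.05 and more than a 2-fold difference, 132 regions were lower in URE-LSK than in WT-GMP (background 33.0%) and 13 were higher (background 21.5%). The other 201 were not called, which does not show that the levels were equal. Both groups entered the choice of regions, so these counts describe the set. All 3 URE-LSK libraries were below all 3 WT-GMP libraries at 139 regions (background 39.2%) and above them at 27 (background 34.7%).

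**Figure D2:**
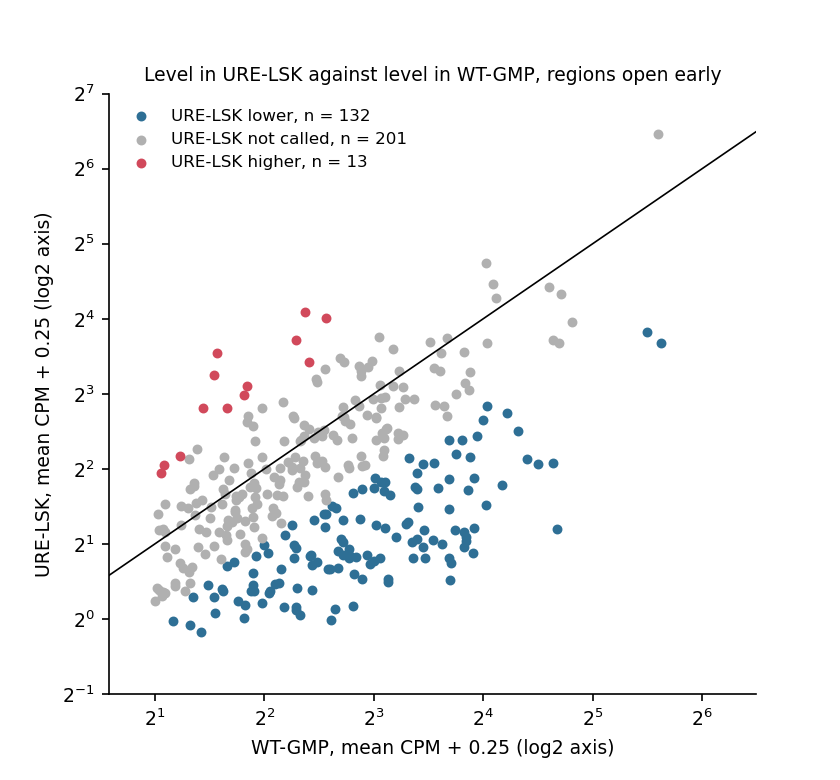
Mean CPM plus 0.25 in URE-LSK (y, log2 axis) against WT-GMP (x, log2 axis) for the 346 regions, coloured by the edgeR call, with the line of equal level. Of the points, 132 called lower lie below the line, 13 called higher above it, and 201 were not called.

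The classes differed in URE-LSK and WT-GMP by their definition. Their WT-GMP medians were 7.12 CPM (132 lower), 4.52 CPM (201 not called) and 2.92 CPM (13 higher). The URE-GMP medians followed the same order at 21.0, 13.02 and 9.59 CPM, so that order is not independent of the WT-GMP level. Of the 21 promoters, 13 were in the lower class and 8 were not called.

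The 13 regions more open in URE-LSK than in WT-GMP lay nearest to Csf1, Fam83d, Ttc7, Epg5, Cln8, Ccdc171, Slc38a2, Dynlrb2, Rgs2, Ifngr1, Rtl1, Ghsr and Thsd7b. The 3 with the largest ratio follow. Near Csf1, which encodes macrophage colony-stimulating factor, an intergenic region 36.4 kb upstream (chr3:107796607-107797059) had 12.1, 8.86 and 13.2 CPM in URE-LSK against 3.34, 2.58 and 2.25 CPM in WT-GMP. The 2 groups did not overlap, and WT-LSK was at 1.06, 0.433 and 0.540 CPM. The log2 difference between URE-LSK and WT-GMP was 2.13 (SE 0.25, edgeR adjusted p = 1.19e-06). In URE-GMP the region had 5.93, 5.37 and 6.55 CPM, below every URE-LSK library, but the difference was less than 2-fold (log2 -0.87, SE 0.24, edgeR adjusted p = 0.00372). The region 5050 bp upstream of Fam83d, a gene of the mitotic spindle, lay in a non-coding exon of Ppp1r16b (chr2:158762682-158763404). URE-LSK had 17.1, 13.7 and 19.5 CPM there and WT-GMP 3.88, 5.57 and 5.30 CPM, a log2 difference of 1.81 (SE 0.17, edgeR adjusted p = 7.67e-08). The region 17.2 kb from the start site of Ttc7, in an intron of Stpg4 (chr17:87395840-87396276), stood at 9.21, 5.06 and 13.5 CPM in URE-LSK, compared with 3.47, 1.73 and 2.79 CPM for WT-GMP, again without overlap (log2 difference 1.87, SE 0.30, edgeR adjusted p = 3.43e-05).

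At the other end stood 3 regions that were nearly closed in WT-LSK, where the ratio of URE-LSK to WT-LSK depends on the added 0.25 CPM. The one 50.8 kb upstream of Myl10, a myosin light chain gene (chr5:136642004-136642665), was at 0.559, 0.347 and 0.561 CPM in WT-LSK. URE-LSK had 1.20, 1.07 and 3.88 CPM, and WT-GMP 28.6, 26.9 and 20.3 CPM. URE-LSK was thus at 0.0900 of WT-GMP, and most of its mean came from replicate 3. The region 34.1 kb upstream of BC048403, at the start site of the lincRNA Gm35865 (chr10:121705483-121706121), had 0.726, 0.902 and 1.93 CPM in URE-LSK against 15.3, 13.5 and 9.41 CPM in WT-GMP. The intergenic one 3048 bp from an annotated start site of Xdh, which encodes xanthine dehydrogenase (chr17:73883141-73884263), had 0.544, 1.42 and 2.82 CPM in URE-LSK, far under the 19.0, 16.4 and 8.73 CPM of WT-GMP. All 3 were lower in URE-LSK than in WT-GMP, with log2 differences of -3.56, -3.37 and -3.15 (SE 0.32, 0.28 and 0.37, edgeR adjusted p = 6.64e-08, 2.91e-08 and 1.10e-06).

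The step to GMP went on in the URE mice. From URE-LSK to URE-GMP, 297 regions (85.8%) were called higher (background 27.6%) and 3 lower (background 21.6%), and 46 were not called. Of the other GMP regions, 7548 (99.0%) were called higher. All 3 URE-GMP libraries lay above all 3 URE-LSK libraries at 319 regions (background 35.1%), and in the wild type all 3 WT-GMP libraries above all 3 WT-LSK libraries at 345 (background 30.3%), a rise that the conditions required. The median URE-GMP/URE-LSK ratio was 4.47, lower than the 7.47 of the other GMP regions. The URE-GMP mean was the highest of the 4 groups at 334 regions (96.5%, against 65.2% of the other GMP regions), URE-LSK at 8 and WT-GMP at 4. The order WT-LSK, URE-LSK, WT-GMP, URE-GMP from lowest to highest held at 267 regions (77.2%, against 48.8%), and at 67 URE-LSK and WT-GMP changed places.

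URE-GMP were also more open than WT-GMP at most of these regions, where the conditions set only a lower bound. The median URE-GMP/WT-GMP ratio was 2.61, against 1.32 at the other GMP regions. All 3 URE-GMP libraries lay above all 3 WT-GMP libraries at 328 of 346 regions (background 27.5%), and 282 were called higher (background 15.6%) and 2 lower (background 24.1%). The 2 lower regions were near Chrd (chr16:20757447-20757734) and in an intron of Arap1 (chr7:101389231-101389676). Near Chrd, WT-GMP had a mean of 4.17 ± 0.817 CPM and URE-GMP one of 1.45 ± 0.121 CPM (SD, n = 3), and at Arap1 they were 7.71 ± 1.55 and 3.02 ± 0.296 CPM. With a test against a 2-fold difference instead of zero (glmTreat), 194 regions were higher. Replicates varied least in URE-GMP, where the median coefficient of variation over regions was 7.09%, against 23.9% in WT-GMP, 42.9% in URE-LSK and 31.1% in WT-LSK.

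The largest URE-GMP/WT-GMP ratio, 15.8, was at an intergenic region 10.1 kb upstream of Mtif3, a mitochondrial translation initiation factor gene (chr5:146973346-146974481). URE-GMP had 39.6, 36.1 and 35.6 CPM there, WT-GMP 2.77, 2.93 and 0.639 CPM. URE-LSK had 1.22, 1.39 and 3.79 CPM. An intron of Ccdc88b (chr19:6851002-6851419) followed, where URE-GMP had 31.2, 26.1 and 37.4 CPM, and WT-GMP 2.02, 3.06 and 2.10 CPM. In both, every URE-GMP library stood far above every library of the other groups. The region 277 kb from Ccdc171 (chr4:83973138-83973750) stood at 24.7, 23.5 and 27.9 CPM in URE-GMP, and URE-LSK at 5.53, 5.30 and 9.56 CPM, both above WT-GMP at 2.15, 3.06 and 2.18 CPM.

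Of the named genes, Ctsg had the most early regions. It encodes cathepsin G, a serine protease of primary granules, and 3 of the 346 regions lay within 12.8 kb around it. The region over its start site (chr14:56100456-56102848) had 4.11, 3.21 and 3.30 CPM in WT-LSK, and URE-LSK reached 9.03, 8.78 and 19.8 CPM. WT-GMP had 57.6, 46.7 and 43.1 CPM, and URE-GMP 103, 97.7 and 94.8 CPM. The groups did not overlap, and each URE-LSK library was above each WT-LSK library. URE-LSK remained lower than WT-GMP (log2 difference -1.93, SE 0.22, edgeR adjusted p = 8.85e-07). The region 3005 bp upstream (chr14:56105017-56106141), which held the joined RUNX and CEBP matches shown above, rose from 3.86, 5.55 and 2.63 CPM in WT-LSK to 11.6, 9.84 and 20.2 CPM in URE-LSK. It had 50.6, 45.3 and 38.9 CPM in WT-GMP, and URE-GMP had 61.2, 62.7 and 58.9 CPM. The region 8146 bp downstream of the start site (chr14:56093332-56093927) rose from 1.62, 1.60 and 1.27 CPM to 5.69, 4.24 and 10.6 CPM in LSK of the URE mice, near the 8.63, 7.54 and 11.3 CPM of WT-GMP. No other primary granule gene had an early region, although the 11 annotated genes of that list had 70 regions, 19 of them among the other GMP regions.

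**Figure D3:**
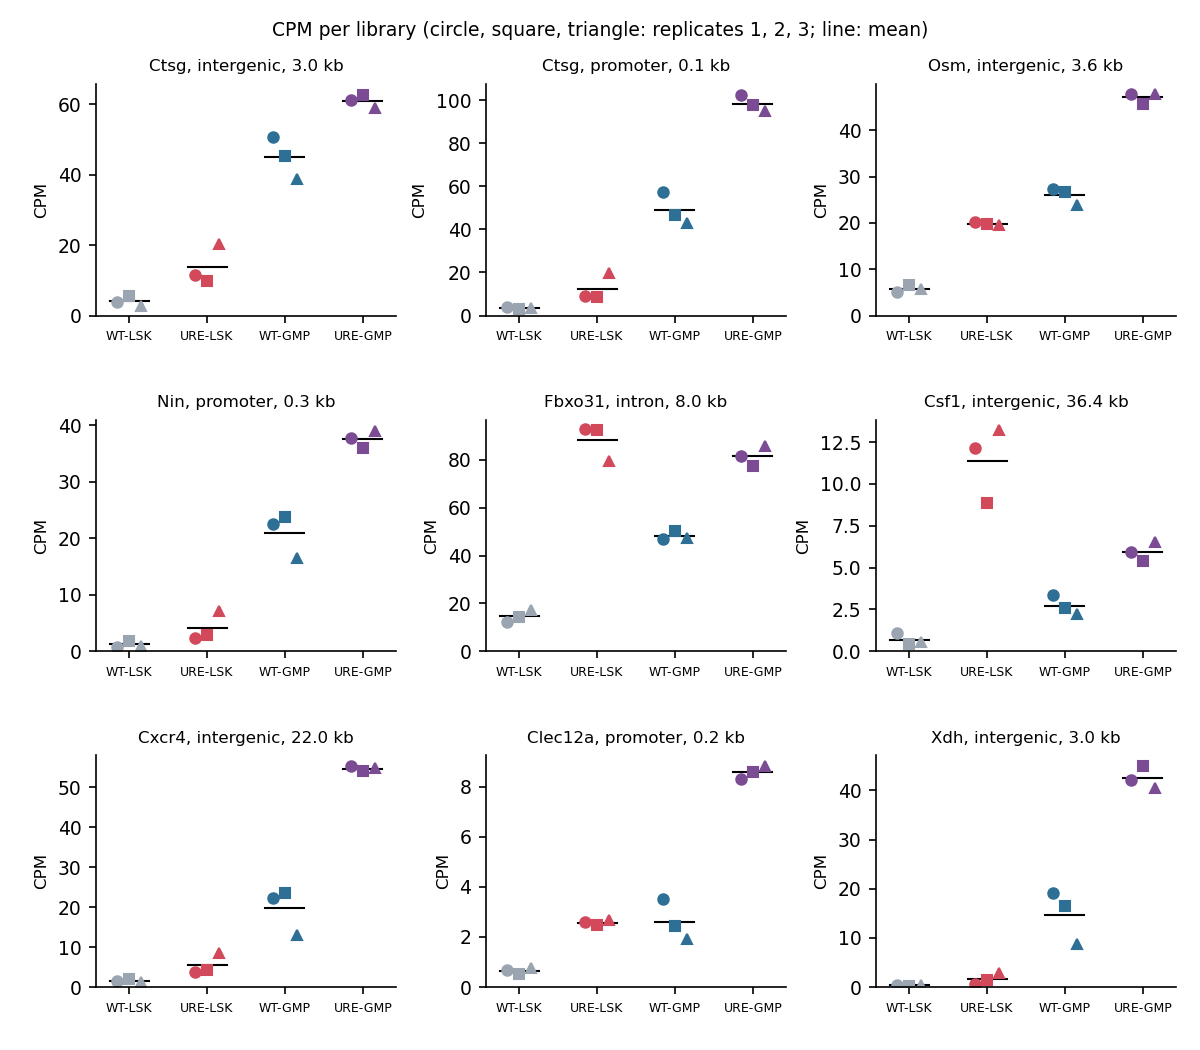
CPM (y, linear axis from 0) in each library of the 4 groups at 9 named regions, with replicates 1 to 3 as circle, square and triangle and the mean as a line; each title gives the nearest gene, the location and the distance to its start site. At Ctsg, Nin, Cxcr4 and Xdh URE-LSK lies well below WT-GMP, at Clec12a the 2 groups overlap, and at Fbxo31 and Csf1 URE-LSK lies above.

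Of the 8 regions with the highest WT-GMP CPM per kb, 4 stood at 3-fold or more over the WT-LSK mean, with 0.25 CPM added to both, in every URE-LSK library, and in 3 of them replicate 3 was the lowest. An intron of Fbxo31 (chr8:121570005-121571460), the gene of a ubiquitin ligase subunit, rose from 12.1, 14.4 and 17.3 CPM in WT-LSK to 92.8, 92.4 and 79.4 CPM in URE-LSK. WT-GMP had 46.9, 50.3 and 47.5 CPM, URE-GMP 81.7, 77.6 and 85.8 CPM. A second gene, Gm20388, spans this intron. URE-LSK and URE-GMP overlapped and did not differ by a called amount (log2 difference -0.05, SE 0.11, edgeR adjusted p = 0.713). An intron of Lin54 (chr5:100466601-100467100), which encodes a DNA-binding subunit of a cell cycle repressor complex, rose from 3.33, 5.03 and 2.98 CPM in WT-LSK to 27.5, 27.9 and 24.3 CPM in URE-LSK, with WT-GMP at 14.8, 19.6 and 13.8 CPM. URE-GMP had 32.6, 28.1 and 32.2 CPM, above each URE-LSK library but not by a called amount (log2 difference 0.29, SE 0.16, edgeR adjusted p = 0.121). The region 3571 bp upstream of Osm (chr11:4232534-4233165), the gene of the cytokine oncostatin M, rose from 5.12, 6.59 and 5.68 CPM in WT-LSK to 20.3, 19.7 and 19.5 CPM in URE-LSK. WT-GMP stood somewhat higher at 27.3, 26.6 and 24.0 CPM, and URE-GMP at 47.9, 45.8 and 47.8 CPM. In an intron of Sgms2, a sphingomyelin synthase gene (chr3:131474279-131474963), replicate 3 was the highest, with a rise from 2.46, 3.81 and 2.22 CPM in WT-LSK to 11.9, 9.65 and 16.0 CPM in URE-LSK. Its WT-GMP libraries had 22.8, 32.4 and 21.4 CPM. Besides Osm, Fbxo31 and Lin54, replicate 3 was not the highest URE-LSK library near Thbs1, Ctsz, Phc3, Clec4d, Wwox, Cxcr5, Tbc1d2b and Ccr4, named here because they complete these 11.

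At the other 4, URE-LSK replicates 1 and 2 stayed below 3-fold and replicate 3 was above it. The region upstream of Ctsg, described above, was one. The promoter of Nin, which encodes the centrosomal protein ninein (chr12:70102329-70102865), had 0.839, 1.91 and 0.885 CPM in WT-LSK, with URE-LSK at 2.43, 2.87 and 7.11 CPM. In WT-GMP it had 22.5, 23.7 and 16.5 CPM. The region upstream of Myl10 was given above. Next to Zfp407 (chr18:84600582-84601001) URE-LSK had 1.09, 1.04 and 3.94 CPM, against 16.5, 13.9 and 8.99 CPM in WT-GMP.

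Early regions near the genes that define these cells were counted beside all regions near those genes. By nearest start site within 100 kb, primary granule genes had 3 (0.867%, against 0.249% of other GMP regions and 0.0577% of all regions) and myeloid cytokine and adhesion receptors 3 (0.867%, against 0.420% and 0.154%). Stem and early progenitor genes had 2 (0.578%, against 0.302% and 0.353%), chemotaxis receptors 1 (0.289%, against 0.315% and 0.0940%) and monocyte genes 1 (0.289%, against 0.406% and 0.205%). The other 5 of the 10 lists had none, although 3 early regions had a start site of a mast cell, basophil or eosinophil gene within 50 kb that was not the nearest. Their shares of all regions were 0.106% (later neutrophil granule genes), 0.134% (C/EBP and granulocyte transcription factors), 0.107% (erythroid and megakaryocyte genes), 0.134% (B and T lineage genes) and 0.0717% (mast cell, basophil and eosinophil genes), so that a count of 0 among 346 cannot be read as a lower share. A longer list of 712 genes, read in addition, had been chosen in the study as overexpressed in URE progenitors by single-cell RNA sequencing. It had 46 early regions (13.3%, against 9.33% of other GMP regions and 5.44% of all), and as it was drawn from cells of the same mouse model it is not independent evidence. Of the study's other 3 expression lists, 2 were underexpressed in URE cells and had 4 and 11 early regions. These were 1.16% and 3.18%, against 2.15% and 4.59% of other GMP regions and 2.32% and 3.26% of all. The last list was also overexpressed in URE cells and had 4 early regions (1.16%, against 2.22% of other GMP regions and 2.87% of all). The 2 overexpressed lists thus differed in direction.

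At the 3 early regions near receptor genes URE-LSK was above WT-LSK, as the conditions required, and at 2 it was called lower than WT-GMP. The receptor list as a whole went the other way. Its 91 regions within 5 kb summed to 633 to 673 CPM in URE-LSK and 828 to 877 CPM in WT-LSK. In an intron of Itgb2, which encodes the shared beta chain of leukocyte integrins (chr10:77554843-77555344), WT-LSK had 0.755, 0.607 and 0.497 CPM, URE-LSK 2.63, 1.75 and 5.48 CPM and WT-GMP 7.68, 8.56 and 8.14 CPM. A region 2748 bp upstream of Clec5a, an activating myeloid lectin receptor gene (chr6:40588384-40588754), had 1.52, 1.48 and 4.66 CPM in URE-LSK, compared with 6.48, 6.73 and 4.99 CPM in the WT-GMP libraries. All 3 lay below WT-GMP, and the region was called lower (log2 difference -1.20, SE 0.34, edgeR adjusted p = 0.00486). At the promoter of Clec12a, an inhibitory myeloid lectin receptor gene (chr6:129356495-129356791), the 3 URE-LSK libraries were close together at 2.61, 2.46 and 2.67 CPM. They lay within the range of WT-GMP, which had 3.51, 2.42 and 1.92 CPM, and above WT-LSK at 0.671, 0.520 and 0.777 CPM. The log2 difference between URE-LSK and WT-GMP was 0.05 (SE 0.22, edgeR adjusted p = 0.844).

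The intergenic region 22015 bp downstream of the Cxcr4 start site (chr1:128569886-128570665) rose from 1.54, 1.95 and 1.14 CPM in WT-LSK to 3.63, 4.18 and 8.47 CPM in URE-LSK. WT-GMP had 22.3, 23.5 and 13.1 CPM, and URE-GMP 55.2, 54.0 and 54.8 CPM. Cxcr4 encodes the chemokine receptor that retains progenitors in the marrow. Ly86 encodes the partner of the receptor CD180 on monocytes and B cells. In its intron (chr13:37399288-37399806) URE-LSK had 0.703, 0.410 and 1.56 CPM and URE-GMP 23.2, 24.3 and 25.8 CPM, with WT-GMP at 3.88, 4.67 and 1.30 CPM. WT-LSK had 0.0839, 0.0867 and 0.194 CPM there, so the ratio of URE-LSK to WT-LSK depends on the added 0.25 CPM. The study listed Ly86 among genes underexpressed in URE cells. Regions within 5 kb of the monocyte list summed to 506 to 554 CPM in URE-LSK and 616 to 634 CPM in WT-LSK. Within Runx1 a region 82.8 kb from its nearest protein-coding start site (chr16:92612480-92612915) lay at the start of the antisense transcript Gm26626. URE-LSK had 0.794, 1.07 and 2.69 CPM there, and WT-GMP 8.17, 13.3 and 8.49 CPM. An intron of Egfem1 (chr3:29114537-29114870) was weak, at 0.140, 0.260 and 0.0216 CPM in WT-LSK, with URE-LSK at 0.930, 0.383 and 1.78 CPM.

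Outside Ctsg, early regions were mostly single. They had 324 different nearest genes, 40 (11.6%) had another within 50 kb, and only Ctsg and the stretch from Elmod3 to Tcf7l1 (chr6:72581507-72642147) held 3. Of the genes nearest to the most early regions, Chrd, Dgat1, Zfp407 and Actr3 followed Ctsg with 2 each. The stronger one near Chrd, the gene of a BMP antagonist (chr16:20756025-20756501), had 0.907, 1.56 and 3.51 CPM in URE-LSK. WT-GMP had 13.6, 16.7 and 11.3 CPM, URE-GMP 24.1, 25.4 and 25.6 CPM, so that URE-GMP was above WT-GMP there and below it at the neighbour described above. In an intron of Dgat1, a triglyceride synthesis gene (chr15:76508028-76508526), URE-LSK had 2.86, 3.31 and 6.54 CPM and WT-GMP 17.4, 13.3 and 12.6 CPM. In an intron of Actr3, which encodes an actin-nucleating subunit (chr1:125419933-125420295), they had 2.27, 1.97 and 5.05 CPM and 7.31, 9.55 and 6.504 CPM.

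By position the early regions were distal. They lay in introns in 48.8% and between genes in 39.0%, and 6.07% lay within 500 bp of any annotated start site, against 7.38% of the other GMP regions and 18.9% of all regions. Their median distance to a protein-coding start site was 18.6 kb, compared with 13.6 kb and 11.04 kb. They were wider, with a median of 483 bp against 359 bp and 322 bp, and had the same GC content as the other GMP regions (47.0%). Regions were merged over the groups in which they were called, so their width is tied to signal.

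Sequence matches were counted in 300-base windows centred on each region, on both strands. CEBP was found in 146 early regions (42.2%), close to the other GMP regions at 42.9% and above all regions at 16.4%. RUNX was found in 99 (28.6%), against 13.9% and 14.4%. The PU.1 match GAGGAAGT was found in 2 (0.578%), against 8.27% and 8.70%. AP-1 (TGANTCA) was found in 68 (19.7%), against 13.7% and 12.1%. CEBP and RUNX stood together in 11.3% of early windows, 5.62% of other GMP windows and 2.48% of all. The single shares also differed between these sets, so the joint shares do not show that the 2 motifs pair preferentially. A window of 300 bases can hold overlapping matches, and 66 early regions held none of the 12 motifs searched. The letters are a description and do not show which factor was bound.

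**Figure D4:**
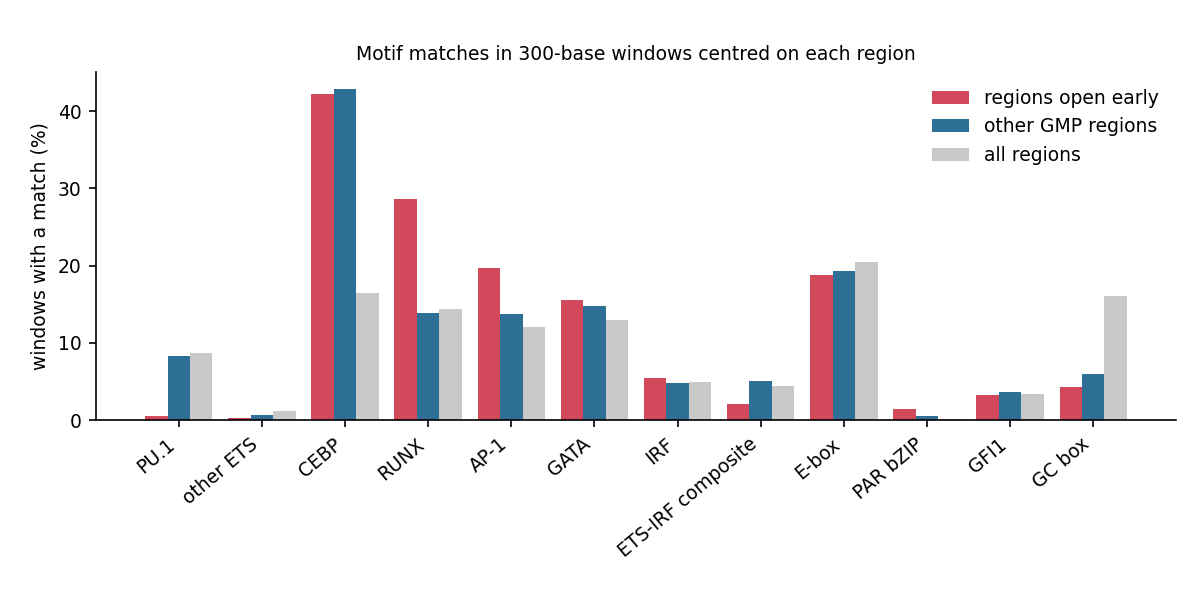
Percentage of 300-base windows with at least 1 match to each of 12 motifs (y, from 0) in the 346 regions open early, the 7628 other GMP regions and all 121336 regions. CEBP is at 42.2% and 42.9% in the first 2 sets, RUNX at 28.6% and 13.9%, and PU.1 at 0.578% and 8.27%.

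The shares of the remaining motifs are given in the same order. The GATA letters AGATAA were found in 15.6% of early windows, 14.7% of other GMP windows and 12.9% of all. The E-box CAGCTG was found in 18.8%, 19.3% and 20.5%, and the IRF motif in 5.49%, 4.76% and 4.93%. The ETS-IRF composite was found in 2.02%, 5.09% and 4.46%, and the GFI1 letters AAATCAC in 3.18%, 3.57% and 3.37%. The GC box GGGCGG, typical of CpG-rich promoters, was found in 4.34%, 5.91% and 16.1%. The PAR bZIP letters TTACGTAA were found in 5 windows (1.45%), against 0.564% and 0.176%, and the other ETS letters CCGGAAGT in 1 (0.289%), against 0.629% and 1.22%.

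Among regions that opened from WT-LSK to WT-GMP and were kept in URE-GMP, motif content followed the URE-LSK/WT-LSK ratio in steps. Below a ratio of 1 (3546 regions) PU.1 was found in 13.4% and RUNX in 11.5%. From 1 to 2 (3281 regions) they were found in 4.24% and 14.6%, and from 2 to 3 (801 regions) in 2.25% and 21.7%. In the early regions, PU.1 was found in 1.01% and then 0%, and RUNX in 26.8% from 3 to 4 (198 regions) and in 31.1% at 4 or more (148 regions). AP-1 rose in every step as RUNX did, with 12.7%, 14.1%, 16.9%, 18.2% and 21.6%. CEBP did not follow that order, with 39.5%, 45.6%, 47.6%, 49.0% and 33.1% in the 5 steps.

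**Figure D5:**
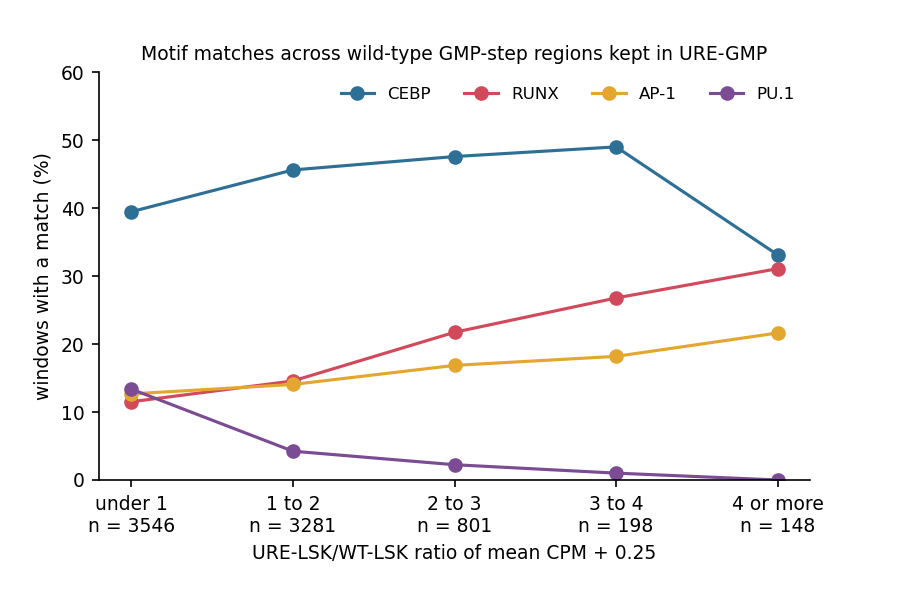
Percentage of 300-base windows with a match (y, from 0) for 4 motifs in 5 steps of the URE-LSK/WT-LSK ratio (x), the last 2 being the 346 regions open early. RUNX runs from 11.5% to 31.1%, AP-1 from 12.7% to 21.6% and PU.1 from 13.4% to 0%. CEBP is highest from 3 to 4 at 49.0% and lowest at 33.1%.

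Without the uneven library the RUNX share was nearly the same and that of CEBP was lower. Among the 169 regions found without URE-LSK replicate 3, RUNX was in 29.0%, CEBP in 36.7%, AP-1 in 24.3% and PU.1 in none. Among the 127 regions at 3-fold in every URE-LSK library, RUNX was in 30.7%, CEBP in 33.1% and PU.1 in none. In regions of 200 bp to below 400 bp, RUNX was in 36.1% of 108 early and 13.1% of 4686 other GMP regions, and in regions of 600 bp or more in 23.0% and 13.8%.

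Motif shares were also read by how far the regions had opened. Of the 132 regions still below WT-GMP in URE-LSK, 70 (53.0%) held CEBP and 29 (21.97%) RUNX. Of the 201 not called, 73 (36.3%) held CEBP and 65 (32.3%) RUNX, and of the 13 above WT-GMP, 3 and 5. Median levels in URE-LSK were 2.34 CPM with and 3.58 CPM without CEBP, and 3.47 CPM with and 2.86 CPM without RUNX. In WT-GMP they were 5.12 and 5.44 CPM for CEBP and 5.35 and 5.28 CPM for RUNX.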

How the data were processed

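ATAC-seq libraries were made from LSK and GMP of 3 mice per genotype and cell type. The authors aligned reads to GRCm38 with Bowtie2, removed duplicates, called peaks per group with Genrich, merged them into 121336 regions and deposited raw read counts per region (featureCounts, per the labels). No deposited column was left unused. CPM were computed as count over column total. The region starts were taken as 0-based and are given plus 1. Annotation came from GENCODE M21 and sequences from RefSeq, both GRCm38. Promoter means a region edge within 500 bp of any annotated start site.

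edgeR 4.0.16 in R 4.3.3 (glmQLFit, glmQLFTest, TMM) was fitted to the 12 libraries with a coefficient per group, after testing on simulated data. DESeq2 1.42.0 served as an alternative. The standard deviation is over 3 libraries. The members and gene lists were chosen with earlier results of these data known. Regions named were the 8 with the highest WT-GMP CPM per kb, up to 3 per gene list by WT-GMP CPM, the strongest region of each of the 5 genes with most members, the 3 largest and 3 smallest URE-LSK/WT-GMP ratios, the 3 largest URE-GMP/WT-GMP ratios and those beside each threshold. Other names were chosen after their values were seen.

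Deviations of same-numbered WT-LSK and WT-GMP libraries correlated at 0.181, 0.191 and 0.207. For URE-LSK and URE-GMP the values were 0.0616, 0.273 and 0.113, and for URE-LSK and WT-GMP -0.00724, 0.00530 and -0.194. For WT-GMP and URE-GMP, which come from different genotypes, they were 0.0997, 0.205 and 0.349. The labels do not say whether equal numbers mark the same animal or day. The main fit did not pair libraries, and the replicate number entered only an alternative fit, as a block.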

Additional observations from a re-analysis of the deposited data

Results flagged for a closer look

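The region 36.4 kb upstream of Csf1 moved one way in WT and the other in URE mice in every library. From LSK to GMP it rose from 0.679 ± 0.337 to 2.72 ± 0.563 CPM in WT (SD, n = 3), and differed by -5.45 CPM in URE mice, from 11.4 ± 2.26 to 5.95 ± 0.590 CPM. The difference between the genotypes was not tested, and the region was chosen for its high level in URE-LSK. Only named regions were searched for this flag. Among all early regions, URE-GMP also lay below URE-LSK in every library near Chrd (chr16:20757447-20757734) and in introns of Epg5 (chr18:78005107-78005806) and Arap1 (chr7:101389231-101389676). The Chrd region was called lower (log2 -1.14, SE 0.22, edgeR adjusted p = 0.000273), while that of Csf1 was not called.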

How the results depend on the processing

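The number of regions meeting the conditions depended on their settings. It was 172 and 61 with pseudocounts of 0.5 and 1, 1472 and 113 with folds of 2 and 4, 233 with a WT-GMP minimum of 4, 408 with TMM library sizes, and 169 to 492 when any single library was left out, lowest without URE-LSK replicate 3. The set of the main conditions was kept for every count that follows. Against WT-GMP, URE-LSK was called higher at 8 regions with glmTreat and at 11 to 21 with 1 library left out (21 without URE-LSK replicate 2), and lower at 119 to 179. From URE-LSK to URE-GMP, 0 were called lower with glmTreat and 0 to 4 with a library left out (0 without URE-LSK replicate 3), beside 291 to 306 called higher. URE-GMP was called lower than WT-GMP at 1 with glmTreat, and higher at 257 with library sizes alone and 293 with DESeq2. With the replicate number as a block, calls were 281 higher and 2 lower (URE-GMP against WT-GMP), 298 and 3 (against URE-LSK) and 12 and 135 (URE-LSK against WT-GMP), and the block changed no other count by more than 1.5 times. In whole regions CEBP was found in 52.0%, RUNX in 38.7% and AP-1 in 28.6%, since longer stretches were searched. Chosen after seeing the data, the 169 regions found without URE-LSK replicate 3 held CEBP in 36.7%, AP-1 in 24.3% and PU.1 in 0%. Within 50 kb of any start site, the receptor list had 5 regions, the monocyte list 0, the stem list 1 and the mast cell list 3. Small log2 differences changed sign at 5 regions, none of them called. URE-GMP against URE-LSK at Fbxo31 was 0.014 with RLE factors or DESeq2 and ran from -0.14 to 0.014 with a library left out. URE-LSK against WT-GMP at Clec12a was -0.033 among regions averaging 2 CPM or more, and at Egfem1 it was 0.12 with loess offsets. With a library left out it ran from -0.085 to 0.32 at Clec12a, -0.59 to 0.52 at Mtif3 and -0.98 to 0.13 at Ccdc88b. The cause of these changes was not tested.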
